A study of Homo sapiens with 6 samples.

Results

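EGR1, EGR2, EGR3, EGR4, NAB1, NAB2, NR4A1, NR4A2 and NR4A3 are 9 regulators of transcription, and each has a row in the deposited table of 19655 genes. They were taken by symbol, and the set was proposed with the differences between the groups already known, so those differences are given here as a description without a test. Gene expression was measured by RNA sequencing of total RNA in 3 libraries labelled ASO and 3 labelled NC. The ASO libraries came from cells labelled as a SNORA67 knockdown, made by transfecting an antisense oligonucleotide (a short synthetic strand that pairs with an RNA) against SNORA67, a small nucleolar RNA. The NC libraries came from cells labelled as control, and their own treatment is not given in the sources used here. Both groups are labelled HCT116, a human colorectal carcinoma line, and were grown in DMEM with foetal bovine serum. Dose, harvest time and oligonucleotide number are likewise not given, and nothing states that the libraries came from separate cultures, so errors measure only the spread between libraries.

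The EGR proteins are zinc finger activators that bind GC-rich sites in promoters. Their genes are immediate early genes, transcribed within minutes of growth factor, stress or cytokine signals by factors already present in the cell, among them the serum response factor SRF. NAB1 and NAB2 are corepressors that bind EGR proteins and limit their activity, and NAB2 is itself a target of EGR proteins. NR4A1, NR4A2 and NR4A3 (also known as NUR77, NURR1 and NOR1) are orphan nuclear receptors, whose activity is set mainly by how much protein is made, and their genes are also immediate early genes in many cell types.

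The sites that the known regulators of these genes recognise are shown in the promoter windows, since 9 genes of related function might share them. RefSeq windows on GRCh38.p14 from 250 bases before to 50 after the annotated start were matched for 7 members, all but EGR3 and NR4A2. Capitals mark 3 motifs, each searched on both strands: the CArG box bound by SRF, TGACG (the core of the cyclic AMP response element, or CRE), and GCGNGGGCG (the EGR site). EGR1 is shown for its CArG boxes, EGR4 and NR4A3 for repeated CRE cores, and NAB1 and NAB2 for their EGR sites.
EGR1, chr5:138465229-138465528, plus strand: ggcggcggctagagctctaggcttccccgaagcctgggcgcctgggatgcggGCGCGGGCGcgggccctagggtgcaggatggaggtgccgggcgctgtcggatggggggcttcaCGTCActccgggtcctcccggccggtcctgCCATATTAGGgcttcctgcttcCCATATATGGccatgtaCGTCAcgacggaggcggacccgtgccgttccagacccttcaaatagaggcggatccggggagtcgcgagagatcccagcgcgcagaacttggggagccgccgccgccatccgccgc
EGR4, chr2:73293499-73293798, minus strand: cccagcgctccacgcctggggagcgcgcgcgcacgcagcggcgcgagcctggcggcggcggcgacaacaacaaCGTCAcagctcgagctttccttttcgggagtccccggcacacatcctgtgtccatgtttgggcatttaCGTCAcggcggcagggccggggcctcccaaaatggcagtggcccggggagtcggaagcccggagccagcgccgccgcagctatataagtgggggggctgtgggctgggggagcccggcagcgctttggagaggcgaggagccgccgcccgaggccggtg
NR4A3, chr9:99821635-99821934, plus strand: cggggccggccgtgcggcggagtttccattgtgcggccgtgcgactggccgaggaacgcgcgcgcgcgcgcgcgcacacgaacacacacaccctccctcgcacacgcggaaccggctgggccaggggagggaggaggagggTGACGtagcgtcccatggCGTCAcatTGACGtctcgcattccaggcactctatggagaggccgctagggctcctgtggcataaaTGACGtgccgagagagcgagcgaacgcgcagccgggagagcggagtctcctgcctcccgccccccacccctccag
NAB1, chr2:190648645-190648944, plus strand: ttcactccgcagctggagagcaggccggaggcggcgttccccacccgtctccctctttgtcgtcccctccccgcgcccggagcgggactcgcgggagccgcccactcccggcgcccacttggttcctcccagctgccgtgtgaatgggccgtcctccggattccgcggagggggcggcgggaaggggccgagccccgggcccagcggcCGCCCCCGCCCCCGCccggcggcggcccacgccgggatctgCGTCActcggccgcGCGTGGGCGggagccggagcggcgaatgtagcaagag
NAB2, chr12:57088864-57089163, plus strand: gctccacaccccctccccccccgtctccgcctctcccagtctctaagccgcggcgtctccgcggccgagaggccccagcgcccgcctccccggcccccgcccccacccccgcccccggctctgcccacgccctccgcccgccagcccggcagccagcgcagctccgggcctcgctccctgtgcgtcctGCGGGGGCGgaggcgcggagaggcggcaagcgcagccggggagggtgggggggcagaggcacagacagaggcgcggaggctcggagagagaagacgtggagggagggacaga

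The EGR1 window held 2 CArG boxes, CCATATTAGG at -105 to -96 and CCATATATGG at -83 to -74 relative to the start. None of the other 6 windows held one. Of 35116 promoter windows, 1.29% held a CArG box and 0.0313%, or 11 windows, held 2 or more. The CRE core TGACG lay in the windows of 4 members, EGR1 (2 matches), EGR4 (2), NR4A3 (4) and NAB1 (1), against 24.6% of all windows with at least 1 match. EGR sites lay in 3, NAB1 (3 matches, of which 2 overlap), NAB2 (1, at -62 to -54) and EGR1 (1), against 9.43% of all windows. Within the NAB windows these matches overlapped GC boxes (GGGCGG). The full CRE (TGACGTCA), the AP-1 site (TGANTCA) and the NR4A element AAAGGTCA had no match in the 7 windows, and 1.85%, 7.71% and 1.22% of all windows held them. The EGR2 and NR4A1 windows held none of the 3 marked motifs. A match describes the letters only. The RefSeq start lies 508 bases upstream of the deposited gene start for EGR2 and 2149 bases downstream of it for NAB1, so other starts of these genes fall outside the windows. For NR4A1 it is the first base of a gene that spans 36676 bases. Any start further inside NR4A1 lies outside its window, so the lack of matches holds for this window only.

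**Figure D1:**
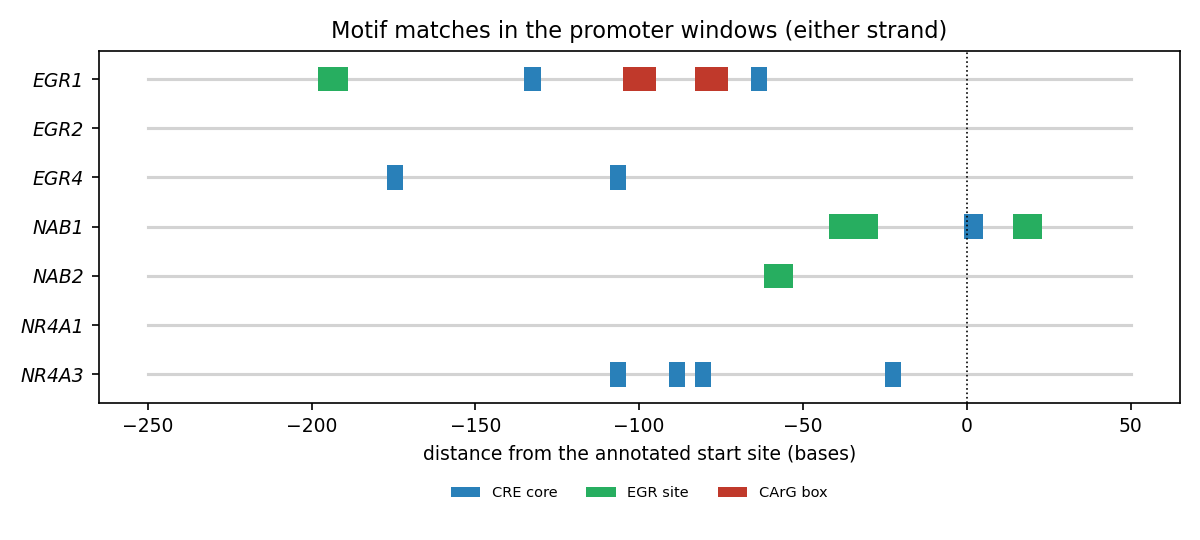
Positions of CArG box, CRE core and EGR site matches on either strand in the 7 promoter windows, in bases from the annotated start site (dotted line), 1 row per gene. The 2 CArG boxes lie in the EGR1 row, and the rows of EGR2 and NR4A1 hold no match.

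The cell label was set beside marker genes. Of 8 colon epithelial markers, 2 were called higher in ASO by edgeR and 6 were not called, where 26.8% of all genes tested were called higher and 19.1% lower. KRT8, a keratin gene of simple epithelia, was abundant, at 989 to 1351 CPM in ASO and 1256 to 1440 CPM in NC, while EPCAM and CDX2 stayed at or below 3.50 and 0.32 CPM in ASO and 5.60 and 0.49 CPM in NC. VIL1, which encodes villin, a protein of intestinal microvilli, was called higher, with 10.9, 1.12 and 14.6 CPM in ASO, against 0, 0.20 and 0 CPM in NC, and was not called by limma-voom or with the replicate block. KRT19 was the other called higher, with 98, 60 and 97 counts in ASO, against 8, 0 and 0 counts in NC. Of 7 mesenchymal markers 6 were tested, 2 called higher and 3 lower. VIM, the one not called, was at 1171 to 1375 CPM in ASO and 1147 to 1296 CPM in NC. COL1A1 and COL5A1 were the higher ones (log2 fold changes 1.22 and 1.07) and DCN, LUM and PDGFRB the lower (-0.93, -1.28 and -1.30). EPCAM, an epithelial marker that the label HCT116 would call for, was thus scarce in all 6 libraries, as was CDX2. Over the 6 libraries CDH1 and KRT20 were also low, at 0.88 to 1.94 and 0 to 0.38 CPM, while KRT18 was abundant, at 649 to 801 CPM. COL5A1 averaged 1280 CPM in ASO and 612 CPM in NC, and COL1A1 374 CPM in ASO and 160 CPM in NC. The mesenchymal list was itself split. COL1A2, its untested gene, had 0 counts in each ASO library and 0, 8 and 0 counts in NC. DCN averaged 1.73 CPM in ASO and 3.31 CPM in NC, LUM 1.87 CPM in ASO and 4.53 CPM in NC, and PDGFRB 41.0 CPM in ASO and 101 CPM in NC. Whether the cells match the label was not tested. Of 8 leukocyte markers, 4 were tested and 3 were called higher in ASO. Their summed level was 13.4 to 15.2 CPM in ASO and 2.73 to 4.11 CPM in NC, mostly from ITGAM in ASO, and PTPRC and CD3E had 0 counts in every library. Of 5 endothelial markers 3 were tested and 1 was called higher, and of 5 neuronal markers 3 were tested, 1 called higher and 1 lower (26.8% higher and 19.1% lower over all genes). The summed level was 14.6 to 19.7 CPM in ASO and 9.59 to 10.8 CPM in NC for the endothelial list, with KDR at 0 counts throughout, and 5.96 to 8.34 CPM in ASO and 5.09 to 7.77 CPM in NC for the neuronal list, with STMN2 at 0 counts. The part of other cell types in the results was not tested. Column totals ran from 49136502 to 54905215 counts in ASO and from 50728524 to 53715905 counts in NC. Small values piled up at 4 in each library, as happens where a single fragment adds about 4 counts. Depth would then lie between 12.3 and 13.7 M fragments (M, 1e+06).

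All 9 genes stood higher in the 3 ASO libraries than in the 3 NC libraries, with no overlap between the groups. Their summed level was 2912 ± 107 CPM in ASO and 465.5 ± 46.1 CPM in NC (SD, n = 3 each). CPM is the count scaled to a library total of 1e+06, here after TMM scaling (trimmed mean of M values). In bulk RNA a higher level per cell and a larger share of cells with the transcript cannot be told apart. By the quasi-likelihood test of edgeR 9 of 9 were past an adjusted p of 0.05 as higher, where 26.8% of the 14062 genes tested were called higher, 19.1% lower and 46.0% in either direction. Groups that did not overlap were found for 57.5% of the genes tested, 31.6% with ASO higher and 26.0% with ASO lower. Because the set was chosen on this contrast, nothing is read from these counts. Only 6 members had 12 counts or more in every NC library, the amount taken as the detection limit (about 3 sequenced fragments). EGR2, EGR3 and EGR4 entered the test through their ASO libraries.

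**Figure D2:**
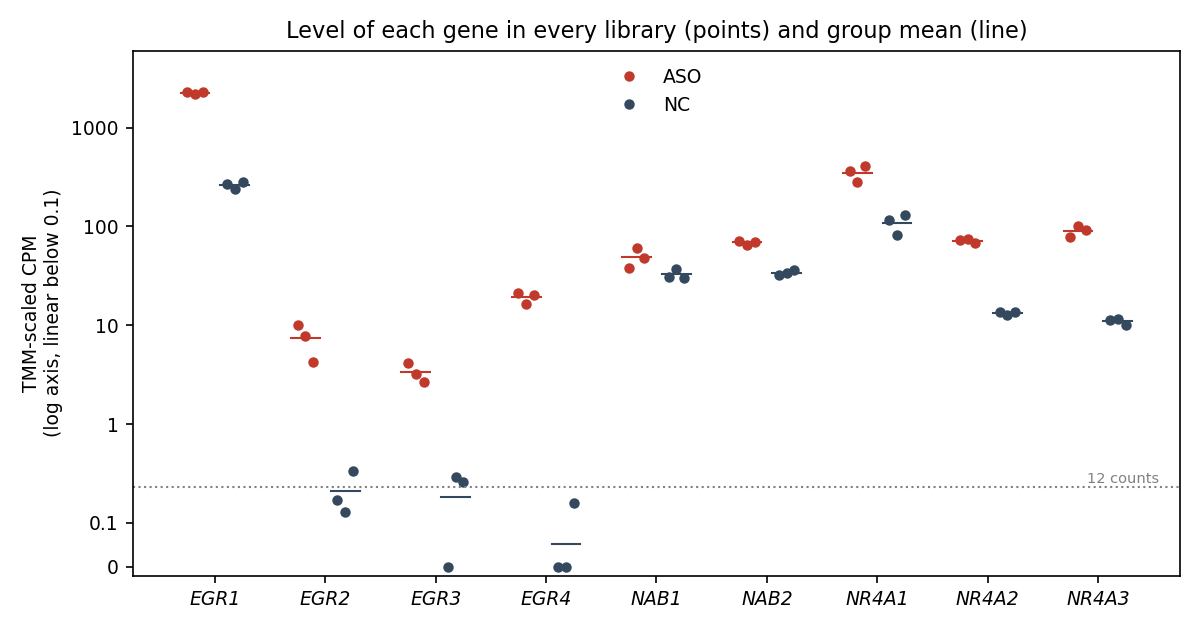
TMM-scaled CPM (log axis, linear below 0.1) of the 9 genes in each library, ASO to the left of NC, with a line at each group mean and a dotted line at 12 counts. EGR1 lies between 2180 and 2298 CPM in ASO and between 238 and 285 CPM in NC, and the NC points of EGR2, EGR3 and EGR4 lie around or below the dotted line.

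EGR1, the founding member of its family, was the most abundant of the 9 genes in every library. It had 2298, 2180 and 2275 CPM in the ASO libraries, against 271, 238 and 285 CPM in the NC libraries. The lowest ASO library was 7.66 times the highest NC library. The edgeR log2 fold change was 3.09 (SE 0.09), or 8.51-fold, and the coefficient of variation was 2.78% in ASO and 9.07% in NC. Per kilobase of its longest transcript, EGR1 ranked 62 of 19231 genes in ASO and 836 in NC. EGR1 made up 77.3% of the summed CPM of the 9 genes in ASO and 56.8% in NC. The gene (ENSG00000120738.7) has 2 exons and spans chromosome 5, 138465490 to 138469315, on the plus strand of GRCh38.

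EGR2 (also KROX20), EGR3 and EGR4 were close to or below the detection limit in NC and measurable in each ASO library. EGR4 (chromosome 2, 73290929 to 73293705, minus strand) had 1151, 831 and 1004 counts in ASO, against 0, 0 and 8 counts in NC. At 4 counts per fragment that is 746 fragments in ASO against 2 in NC, a ratio of 383 with an exact 95% counting interval of 106 to 3170. EGR2 (chromosome 10, 62811996 to 62818659 in the deposited table, minus strand) had 538, 389 and 213 counts in ASO, against 9, 7 and 17 in NC, a ratio of 36.6 (exact 95% counting interval 18.3 to 85.6). EGR2 differed most among the ASO libraries of the 9 genes, with a coefficient of variation of 39.5%, its replicate 3 lying lowest. EGR3 (chromosome 8, 22687659 to 22693302, minus strand) had 223, 161 and 133 counts in ASO, against 0, 16 and 13 in NC, a ratio of 18.9 (exact 95% counting interval 8.93 to 48.0). These intervals cover counting error only. In CPM the ASO levels averaged 19.4 ± 2.48 for EGR4, 7.35 ± 2.90 for EGR2 and 3.34 ± 0.75 for EGR3 (SD, n = 3).

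The 4 EGR genes therefore stood far apart in level. Per kilobase of transcript, EGR1 held 98.4% ± 0.20 of the summed EGR level in ASO and 99.8% ± 0.10 in NC. EGR4 held 1.12% ± 0.11 in ASO and 0.02% ± 0.04 in NC, and EGR2 0.34% ± 0.13 in ASO and 0.08% ± 0.04 in NC. In ASO the order per kilobase was EGR4, then EGR2, then EGR3, with no overlap between neighbours, while in NC the libraries of these 3 genes overlapped.

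The corepressor genes differed less between the groups than any EGR gene. NAB2 had 71.9, 65.7 and 69.9 CPM in ASO, against 32.1, 33.8 and 36.7 CPM in NC. The values were tight within both groups and well separated, with a log2 fold change of 1.02 (SE 0.10), or 2.02-fold. NAB1 had 37.96, 60.2 and 48.3 CPM in ASO, against 31.0, 37.5 and 30.3 CPM in NC. Its lowest ASO library, replicate 1, was only 1.01 times its highest NC library, replicate 2, and the log2 fold change was 0.57 (SE 0.18), or 1.48-fold. Leaving out ASO replicate 2 gave 0.39, and NAB1 was no longer past the edgeR threshold without ASO replicate 2 or 3 or NC replicate 1 or 3. Per kilobase, NAB2 exceeded NAB1 in all 6 libraries, 2.38 ± 0.65 times in ASO and 1.69 ± 0.25 times in NC, with overlapping libraries. The EGR1 level per kilobase was 27.6, 28.7 and 28.1 times that of NAB2 in ASO, against 7.30, 6.08 and 6.71 times in NC.

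NAB1 lies on chromosome 2, 190646746 to 190692766, and NAB2 on chromosome 12, 57088894 to 57095476, both on the plus strand. NAB2 shares 69 bases at its 3' end with STAT6, a transcription factor of interleukin-4 signalling, which lies on the minus strand (57095408 to 57132139). The counting is not stated to use strand, so reads from those bases cannot be assigned. STAT6 had 197, 169 and 181 CPM in ASO, against 217, 207 and 236 CPM in NC, opposite in direction to NAB2 (log2 fold change -0.27, edgeR adjusted p = 0.0438). That call was lost in 7 of 15 alternatives with a test, where the adjusted p ran from 0.0553 (edgeR, RLE) to 0.122 (edgeR, without ASO replicate 3).

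The nuclear receptor genes were detected in both groups, and the rarer ones differed more. NR4A1 had 362, 282 and 407 CPM in ASO, against 115, 81.4 and 130.3 CPM in NC. Replicate 2 was the lowest in both groups, and the log2 fold change was 1.68 (SE 0.20), or 3.21-fold. NR4A2, known for its role in dopamine neurons, had 73.2, 74.1 and 68.7 CPM in ASO, against 13.8, 12.9 and 13.7 CPM in NC. Its libraries agreed closely within groups, with coefficients of variation of 4.07% in ASO and 3.87% in NC, and its log2 fold change was 2.42 (SE 0.11), or 5.35-fold. NR4A3 had 78.3, 101 and 93.0 CPM in ASO, against 11.3, 11.6 and 10.0 CPM in NC. Here the log2 fold change was 3.05 (SE 0.14), or 8.27-fold.

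Because the 3 receptors differed by unequal amounts, their mix shifted. Per kilobase, NR4A1 made up 72.7% ± 4.84 of the summed NR4A level in ASO and 83.8% ± 3.33 in NC, without overlap between the groups. NR4A3 made up 11.8% ± 2.64 in ASO and 5.41% ± 1.49 in NC, and NR4A2 15.4% ± 2.45 in ASO and 10.8% ± 1.84 in NC. The NR4A1 level was 7.50, 4.53 and 7.12 times that of NR4A3 in ASO, against 16.6, 11.4 and 21.1 times in NC. NR4A1 is on chromosome 12 (52022832 to 52059507, plus strand), NR4A2 on chromosome 2 (156324432 to 156342348, minus strand) and NR4A3 on chromosome 9 (99821855 to 99866891, plus strand), so the 9 genes lie on 6 chromosomes.

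**Figure D3:**
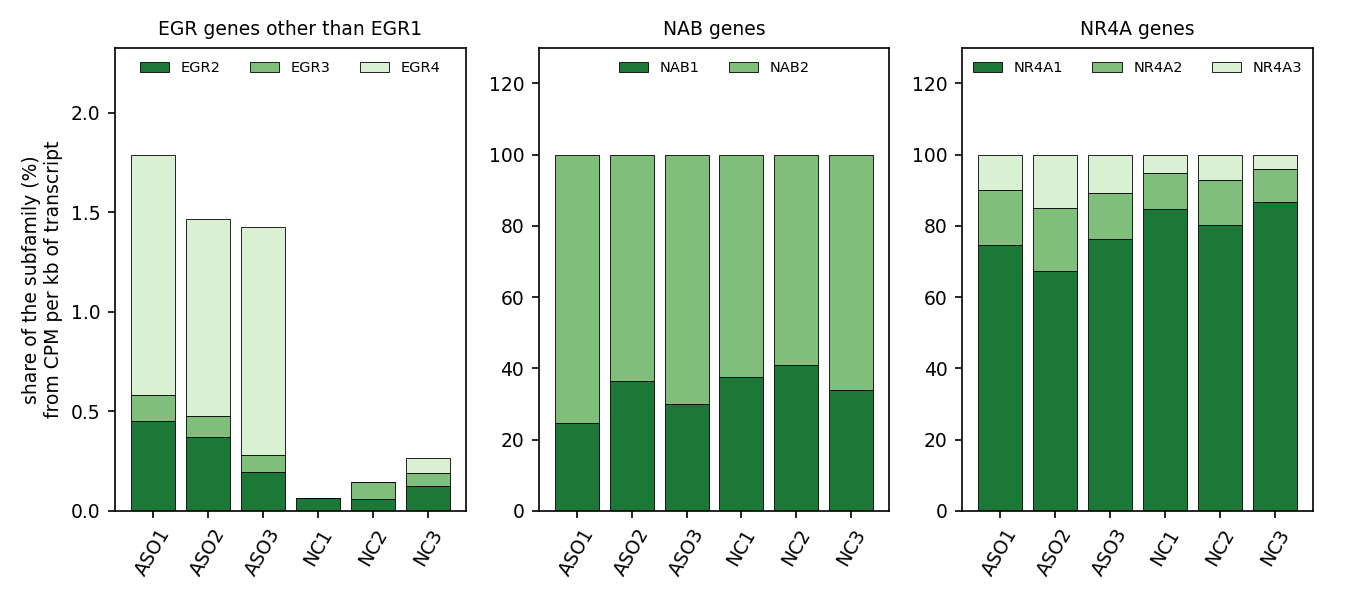
Stacked bars of the share of each gene in the summed level of its subfamily, from CPM per kilobase of transcript, in the 3 ASO libraries and then the 3 NC libraries. EGR1 is left out of its panel so that EGR4, at 1.12% in ASO and 0.02% in NC, can be seen, and the NR4A1 share is 72.7% in ASO and 83.8% in NC.

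Across the 9 genes the order of levels per kilobase in ASO was EGR1, NR4A1, NAB2, NR4A2, NR4A3, NAB1, EGR4, EGR2 and EGR3. NR4A3 overlapped NAB1, and NAB1 overlapped EGR4. In NC the order was EGR1, NR4A1, NAB2, NAB1, NR4A2, NR4A3, EGR2, EGR3 and EGR4, and the last 3 overlapped. NAB1 thus stood above NR4A2 and NR4A3 in NC and below them in ASO. The median log2 fold change was 3.05 over the 9 genes and 2.05 over the 6 detected in every NC library, beside 0.01 over all genes tested.

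Fold changes over the table followed base composition, and this touched single members. Among 12387 genes at 1 CPM or more, the median log2 fold change was -0.38 in the lowest 25% by transcript GC content and 0.20 in the highest 25%. Members ranged from NAB1 at 39.9% GC to EGR4 at 66.0%, around a median of 49.8%. With a smooth trend on GC content and length removed, NAB1 was at 1.08 and NAB2 at 0.52 on the log2 scale, which turned their order round. EGR1 was then at 2.79, NR4A1 at 1.26, NR4A2 at 2.48 and NR4A3 at 3.14. The part of base composition in the differences was not tested further.

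**Figure D4:**
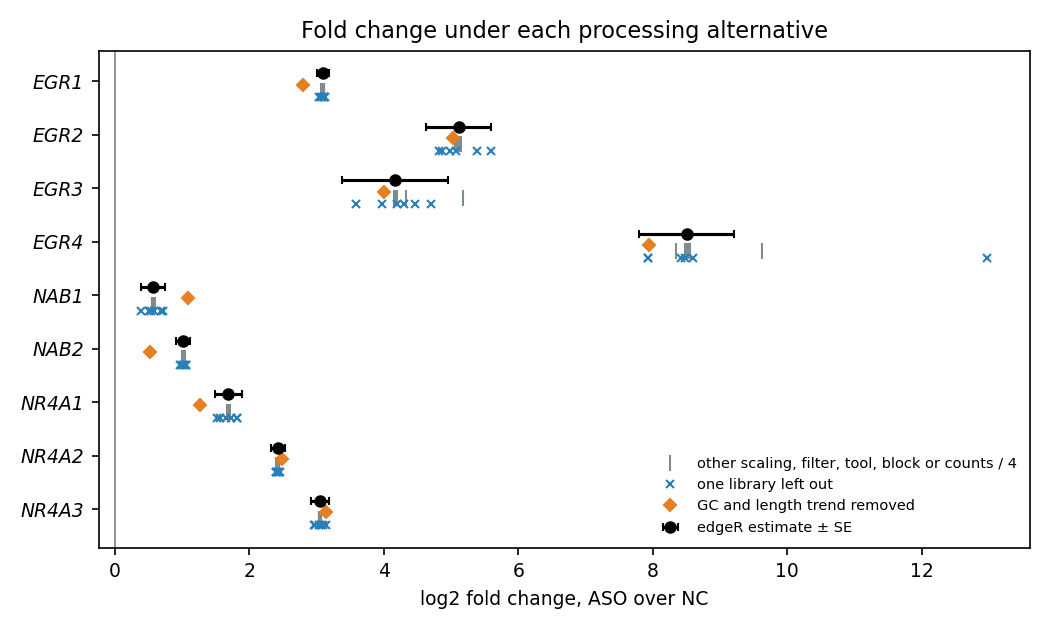
Log2 fold change (ASO over NC) of each gene, as the edgeR estimate with its standard error (black), with the GC and length trend removed (orange), with 1 library left out (blue crosses) and under other scalings, filters, tools, a block or counts divided by 4 (grey ticks). All values lie above 0, and those of NAB1 run from 0.39 to 1.08. The point for EGR4 at 12.98 is the fit without NC replicate 3, where its remaining NC counts are 0.

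Other genes of the same pathway were followed in lists, using the edgeR calls of the whole table. The lists were drawn up by known roles, but with earlier results of these data known, so their counts are a description. Of 14 tested factors known to act on immediate early promoters, 5 rose and 0 fell, where 26.8% of all genes tested rose and 19.1% fell, and the median was 0.11 on the log2 scale. At an unadjusted p under 0.05, 2 were lower in edgeR, and after adjustment 1 fell by DESeq2 and 0 by limma-voom. SRF itself, the CArG box factor, had 147, 126 and 139 CPM in ASO, against 115, 100.4 and 110 CPM in NC (log2 fold change 0.34, edgeR adjusted p = 0.0241). The SRF call was lost without ASO replicate 1 or 3 or NC replicate 2 or 3, where the adjusted p reached 0.0828. MEF2D, a factor known to act on the NR4A1 promoter in lymphocytes, rose by 1.05 on the log2 scale (edgeR adjusted p = 0.00013). The CREB coactivator gene CRTC2 rose by 1.03 (edgeR adjusted p = 0.00063) and CREM, a CREB relative, by 1.15 (edgeR adjusted p = 0.00509). The CREB gene itself, CREB1, was at 10.5 ± 1.54 CPM in ASO and 13.9 ± 0.51 CPM in NC and did not pass (edgeR adjusted p = 0.0727), though it did with the replicate block or without ASO replicate 1, where the lower adjusted p was 0.0357. The ternary complex factor genes ELK1, ELK3 and ELK4, partners of SRF, did not pass either, with log2 fold changes of -0.12, 0.18 and -0.06.

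Kinases of the ERK and p38 cascades relay signals to these promoters. Of 13 tested, 5 fell and 1 rose while 7 did not pass, where 19.1% of all genes tested fell and 26.8% rose, and the median was -0.21 on the log2 scale. The rise was in MAP2K3, an activator of p38, with 317, 258 and 291 CPM in ASO, against 45.6, 39.9 and 49.4 CPM in NC (log2 fold change 2.68, edgeR adjusted p = 4e-06). MAP2K6, the other p38 activator, went the opposite way, with 5.49, 11.3 and 6.28 CPM in ASO, against 26.7, 36.8 and 27.5 CPM in NC (log2 fold change -1.98, edgeR adjusted p = 0.00121). RPS6KA1, an ERK-activated kinase known as RSK1, fell by 0.66 on the log2 scale (edgeR adjusted p = 0.00142). These are RNA levels and say nothing of kinase activity.

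Genes reported elsewhere as targets of EGR proteins were mostly higher. Of 19 tested, 12 rose, 1 fell and 6 did not pass, with a median log2 fold change of 1.81, where 26.8% of all genes tested rose and 19.1% fell. GADD45A and GADD45B, growth arrest and stress genes, were at 194 ± 15.4 and 360 ± 30.5 CPM in ASO and at 14.5 ± 0.61 and 32.8 ± 3.71 CPM in NC (log2 fold changes 3.74 and 3.46, edgeR adjusted p = 5.24e-07 and 1.32e-06). THBS1, a matrix glycoprotein gene, rose by 2.28 to 1541 ± 90.9 CPM in ASO, against 318 ± 14.8 CPM in NC (edgeR adjusted p = 1.32e-06). HPSE, the heparanase gene, was the member that fell (log2 fold change -1.15, edgeR adjusted p = 0.0102) and is named after its values were seen. Many of these genes are also targets of other signal-induced factors, so the list does not single out EGR proteins. Of the zinc finger genes whose proteins bind similar GC-rich sites, SP2 rose by 0.65 (edgeR adjusted p = 0.0109), SP1, SP3 and SP4 did not pass, and WT1 had 0 counts in every library.

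The partners and reported targets of the NR4A receptors were often undetected. Of 14 listed, 9 were tested, with 5 higher, 1 lower and 3 not called, where 26.8% of all genes tested were higher and 19.1% lower. RXRA, the partner with which NR4A1 and NR4A2 form heterodimers, was at 39.7 ± 2.69 CPM in ASO and 50.1 ± 2.41 CPM in NC (log2 fold change -0.33, edgeR adjusted p = 0.0321). This fall was the single lower call and was lost without ASO replicate 3, NC replicate 1 or NC replicate 3. SLC6A3, the dopamine transporter gene and a known NR4A2 target in neurons, had 0 counts in each NC library and 8.22 ± 1.41 CPM in ASO. With NC taken at 12 counts per library, its ASO mean was at least 36.1-fold higher (edgeR adjusted p = 3.4e-05). G6PC1, a glucose production gene of liver, had 0 counts in each NC library and 0.84 ± 0.39 CPM in ASO, at least 3.69-fold higher (edgeR adjusted p = 0.00246). ENO3, a muscle enolase gene, rose by 1.19 on the log2 scale (edgeR adjusted p = 0.000232). The list median was 1.19 as fitted and 0.98 with the 3 genes at 0 in NC at their lower bounds. POMC, RXRG and FBP1 had 0 counts in every library. With counts divided by 4, 3 of this list were higher. G6PC1 was not among them, since its 69, 28 and 34 counts in ASO then fall short of the filter.

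The NuRD remodelling complex, which NAB2 is known to bind through CHD4, was followed over 13 genes. Of these, 7 were called lower, 2 higher and 4 in neither direction, where 19.1% of all genes tested were called lower and 26.8% higher, and the median was -0.37 on the log2 scale. CHD4 had 470, 451 and 468 CPM in ASO, against 591, 600 and 599 CPM in NC (log2 fold change -0.37, edgeR adjusted p = 0.00297). CHD3 and HDAC1 fell by 0.42 and 0.39 (edgeR adjusted p = 0.0026 and 0.00514). The genes that rose, MTA2 and GATAD2A, are named after their values were seen, with log2 fold changes of 0.31 and 0.37 (edgeR adjusted p = 0.0144 and 0.0115). The MTA2 call was lost without ASO replicate 3 (edgeR adjusted p = 0.065).

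**Figure D5:**
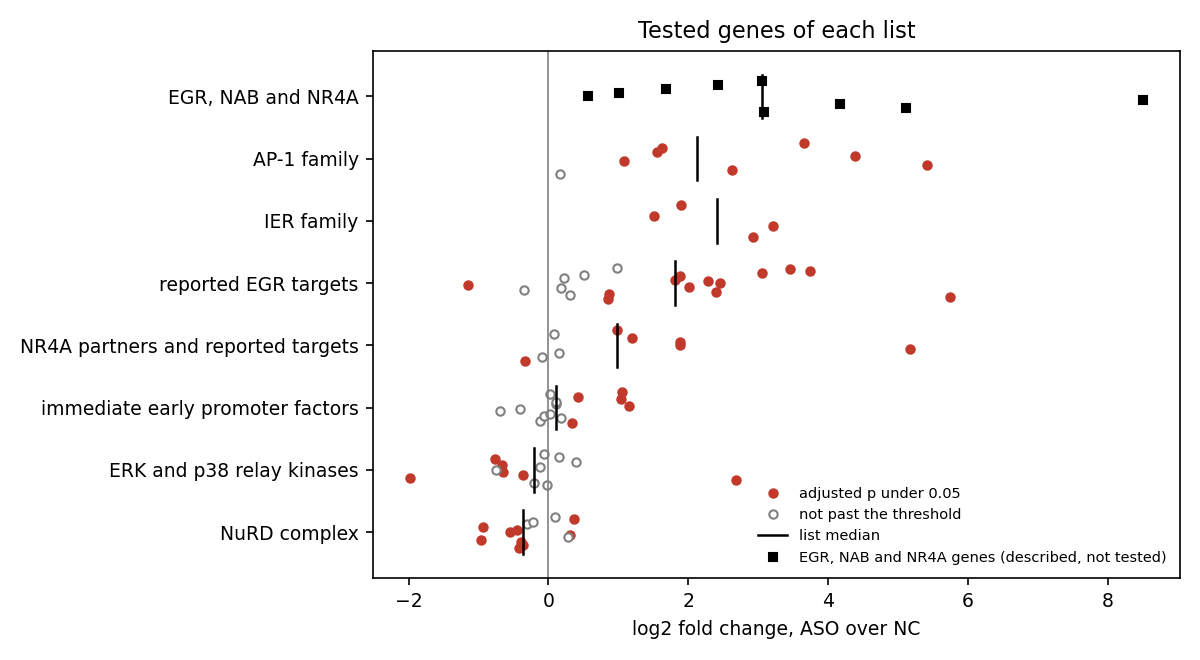
Log2 fold change (ASO over NC) of every tested gene of 8 lists, with red for an edgeR adjusted p under 0.05, open circles for the rest and a bar at the median. Black squares are the 9 EGR, NAB and NR4A genes, and genes at 0 in NC are drawn at their lower bound. The list medians run from 3.05 for the 9 genes (2.05 over the 6 detected in every NC library) to -0.37 for the NuRD complex.

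Set beside other immediate early families, the 9 genes had a median log2 fold change of 3.05. It was 2.13 for 8 AP-1 genes and 2.41 for 4 IER genes, all with 12 counts or more in every library. Over the 6 members with 12 counts or more in every NC library the median was 2.05, below both families. No difference between these families was tested. Of these, 7 AP-1 genes and 4 IER genes were called higher, where 26.8% of all genes tested were. The AP-1 genes with the smallest p were FOSL1 (5.42), JUN (4.39) and ATF3 (3.65) on the log2 scale. On that scale the IER genes stood at 3.21 for IER3, 2.92 for IER2, 1.89 for IER5L and 1.51 for IER5, and IER2 varied most in ASO, with 1931, 1559 and 845 CPM in ASO, against 222, 103 and 246 CPM in NC. FOS, often induced together with EGR1, is named after its values were seen and stood at 357, 346 and 324 CPM in ASO, against 329, 259 and 324 CPM in NC (log2 fold change 0.17, edgeR adjusted p = 0.22).

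The genes with the profiles most like those of EGR1, NR4A1 and NAB2 were found by the root mean square difference of log2 CPM, centred on each gene, over the 6 libraries. These libraries fall into 2 groups of 3, so a small difference mostly marks a fold change of like size. Nearest to EGR1 were NEDD9, an adhesion scaffold gene (0.0546), NFKBIE, an NF-kB inhibitor gene (0.0647), NPIPB9 (0.0804) and SDC4, a cell surface proteoglycan gene (0.0818). SDC4 was the most abundant of them, at 647 CPM in ASO and 79.8 CPM in NC. Nearest to NR4A1 were ASIC3, an acid-sensing channel gene (0.105), SPRED3 (0.113), ISL2, a homeobox gene (0.132), and IZUMO4 (0.133), all of low level. Nearest to NAB2 were TMPRSS3, a serine protease gene (0.024), SHROOM3, a cytoskeletal regulator gene (0.0307), BCOR, a corepressor gene (0.0431), and NPIPA1 (0.0501). NPIPB9 and NPIPA1 belong to a family of near-identical copies, so their counts are uncertain. All of these were called higher in ASO, where 26.8% of all genes tested were. They were picked by likeness to genes that are high in ASO, so nothing is read from these calls.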

How the data were processed

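Estimated counts per gene, deposited by the authors without scaling, were used for 6 libraries. Per the submitters' processing notes, the build was hg38 and the tools were STAR, StringTie, FastQC and DESeq2. Their versions, roles, annotation and strand setting are not stated there. Deposited values were whole numbers, so rounding changed none. In R 4.3.3 with edgeR 4.0.16, filterByExpr (minimum count 10, minimum total 15) kept 14062 genes and left out 5593. TMM scaling, robust quasi-likelihood tests of ASO against NC without a block, and Benjamini-Hochberg adjustment over all genes tested followed, with a threshold of 0.05. Standard errors are the absolute log2 fold change over the root of the F statistic. The test was checked on simulated counts. These had far fewer changed genes than were called here and no gene as scarce in NC as EGR2, EGR3 and EGR4, so the check does not cover those conditions.

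Levels per kilobase use the longest GENCODE 29 protein-coding transcript, and smooth trends were fitted with mgcv 1.9.3. Alternatives were RLE, upper-quartile and no scaling, 2 other filters, DESeq2 1.42.0, limma-voom (limma 3.58.1), a replicate block, counts divided by 4, and leaving out each library. Same-numbered libraries deviated together with correlations of 0.05, 0.19 and 0.02, so the numbers were not taken as pairs. No libraries agreed within sampling noise.

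The members and lists were chosen with earlier results of these data known. Genes named besides the members are the 3 smallest p-values among called genes of each list, the markers as levels, the 4 nearest profiles to EGR1, NR4A1 and NAB2, and overlapping genes. Other genes named, among them SRF, CREB1, ELK1, ELK3, ELK4, RXRA, SP1, SP3, SP4, FOS, IER2, HPSE, MTA2, GATAD2A, single marker genes and genes at 0 counts, were chosen after their values were seen.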

Additional observations from a re-analysis of the deposited data

How the results depend on the processing

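All 144 fold changes of the 9 members under 16 alternatives kept their direction. The number of members past the edgeR threshold was 9 under each alternative other than leaving out a library, where it was 8 to 9. The member lost was NAB1, without ASO replicate 2 or 3 or NC replicate 1 or 3. Over all genes, 6464 were called, and 4892 to 7126 when 1 library was left out. Calls of lower genes, 2692 in the full set, ran from 1755 (without NC replicate 1) to 3199 (without ASO replicate 2) and stood at 1764 without ASO replicate 3. The cause was not tested. On the other lists 51 genes were called, and 46 to 54 with 1 library left out. With the replicate block, 7418 genes, 9 members and 56 list genes were called, but the numbers do not pair the libraries by the labels, and not every library correlated best with its own number. Of 524 values of the genes named by the rule on p-values, profiles and overlap, 517 kept their direction and side of the threshold, and the 7 that did not were of STAT6. A gene filtered out under an alternative gives no value and is not counted there, as for G6PC1 with counts divided by 4. Among genes chosen after their values were seen, the call changed for SRF under 4 alternatives, RXRA under 3, CREB1 and VIL1 under 2 each and MTA2 under 1. Apart from VIL1 and KRT19, the calls of marker genes were not followed through the alternatives. EGR2, EGR3 and EGR4 rest on 8, 7 and 2 fragments in NC, so their fold changes are loose: EGR4 stood at 7.93 to 12.98 on the log2 scale, the highest being the fit without NC replicate 3, where its remaining NC counts are 0.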
